A study of Triticum aestivum with 39 samples.

Results

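The seedling crown was compared with the seedling leaf in wheat (Triticum aestivum), using 3 arrays labelled as crown and 3 labelled as leaf out of 39 arrays in all. Both tissues came from wild-type plants of cultivar Chinese Spring that received no treatment and were sampled at a height of 10 cm (range 9 to 11 cm). Each replicate was sown in 20 pots and each collection pooled tissue of 10 plants, so an array measures the average of several plants and a crown array the average of all cell types of the crown. Whether crowns and leaves with the same replicate number came from the same plants is not stated. The immature inflorescence and the floral bracts of the same cultivar, also 3 arrays each, served as a second comparison of a tissue around a growing point with a green leafy organ. The other 9 tissues were used only to place the genes that differ. RNA had been hybridized to the Affymetrix Wheat GeneChip, on which a probeset is a group of short probes for 1 transcript sequence. Of 61290 probesets in the table, 39564 were retained by their names alone, leaving out the types that are designed against several transcripts or have an uncertain orientation. Probesets not clearly anchored at the 3' end of a transcript were not left out. The study found the signal of such probesets less reliable on average and did not use them in its comparison, so a low level can reflect the probeset. All levels are log2(signal + 16), and all differences are crown minus leaf on this scale unless stated otherwise. An offset of this kind understates the change of genes with low signal.

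The crown of a grass seedling is the short base of the shoot. It holds the shoot apical meristem, the bases of the leaf sheaths, the buds that form tillers and the nodes from which crown roots emerge. Dividing cells make histones to package newly copied DNA and tubulins for the spindle and cortical microtubules. In the expanded leaf blade most cells are mesophyll, whose chloroplasts capture light and fix carbon in the Calvin cycle, and whose peroxisomes break down the hydrogen peroxide that photorespiration releases. Wheat is hexaploid, so most probesets measure the sum of several homoeologous gene copies.

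The 6 arrays had a common scale, with a 2% trimmed mean of 500.2 on each. Median signals of the retained probesets were 46.9 to 52.2 on crown arrays and 57.1 to 60.1 on leaf arrays. The strongest signal of an array was 34681 to 45287 in the crown and 61009 to 80895 in the leaf. The 9 hybridization control probesets, for RNA added in equal amount after labelling, averaged 10.39 to 10.80 on crown arrays and 11.52 to 12.35 on leaf arrays, and their part in the results was not tested. Crown replicates correlated at 0.960 to 0.967 across probesets and leaf replicates at 0.930 to 0.948, whereas crown arrays correlated with leaf arrays at 0.808 to 0.846. Leaf replicate 1 stood apart from the other two leaf arrays. It differed by 1 log2 unit or more from replicate 2 at 20.6% and from replicate 3 at 19.7% of probesets, against 16.0% between replicates 2 and 3 and 9.74% to 12.3% between crown replicates. In the 4437 probesets higher in the inflorescence than in bracts, it was below the mean of the other leaf arrays at 63.4%, against 51.4% of all probesets. Results that turn on this array are given with and without it.

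Crown and leaf differed at 23.1% of the retained probesets. In whole organs, fewer cells of a type and less RNA per cell cannot be told apart. In limma, 4490 probesets (11.3%) were higher in the crown and 4663 (11.8%) were lower, at an adjusted p under 0.05 and a log2 difference of at least 1. The largest differences lay on the side of the leaf. A difference of at least 4 was found for 100 probesets higher and 363 lower in the crown, and one of at least 6 for 16 higher and 73 lower. The 3 crown arrays were all above the 3 leaf arrays at 20.4% of probesets and all below them at 21.4%. The median difference of all probesets was -0.07. The balance between the directions depended on how arrays were scaled: with equal array medians 61.3% of the called probesets were higher in the crown, against 49.1% with the deposited scaling, and after scaling to the hybridization controls 89.6% were.

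Many of these probesets were not measurably above background in the tissue with the lower level. The background was taken as the level under which 95% of the 64 reporter probesets of an array lay, 5.92 to 6.63 on crown arrays and 6.44 to 6.71 on leaf arrays. Of the 4490 probesets higher in the crown, 1386 (30.9%) stayed at or below that level on all 3 leaf arrays, against 48.3% of all retained probesets. Of the 4663 lower in the crown, 1811 (38.8%) stayed at or below it on all 3 crown arrays, against 44.5% of all retained probesets. Both shares were thus below those of all probesets. The size of the difference is then set by the offset and the background.

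A gene that has a name was known for 110 retained probesets, which stand for 76 genes. Of these probesets 15 were higher and 36 lower in the crown, against 11.3% and 11.8% of all probesets, so that the share higher was close to that of all probesets. The other 59 passed the test in neither direction. The median difference of all 110 named probesets was -0.49, against -0.07 for all retained probesets. Photosynthesis, carbon metabolism and detoxification genes made up most of the lower ones, and histone, tubulin and protein synthesis genes most of the higher ones. The groups were formed by gene function and hold few genes each, and several probesets can stand for 1 gene, so the counts describe these genes only.

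**Figure D1:**
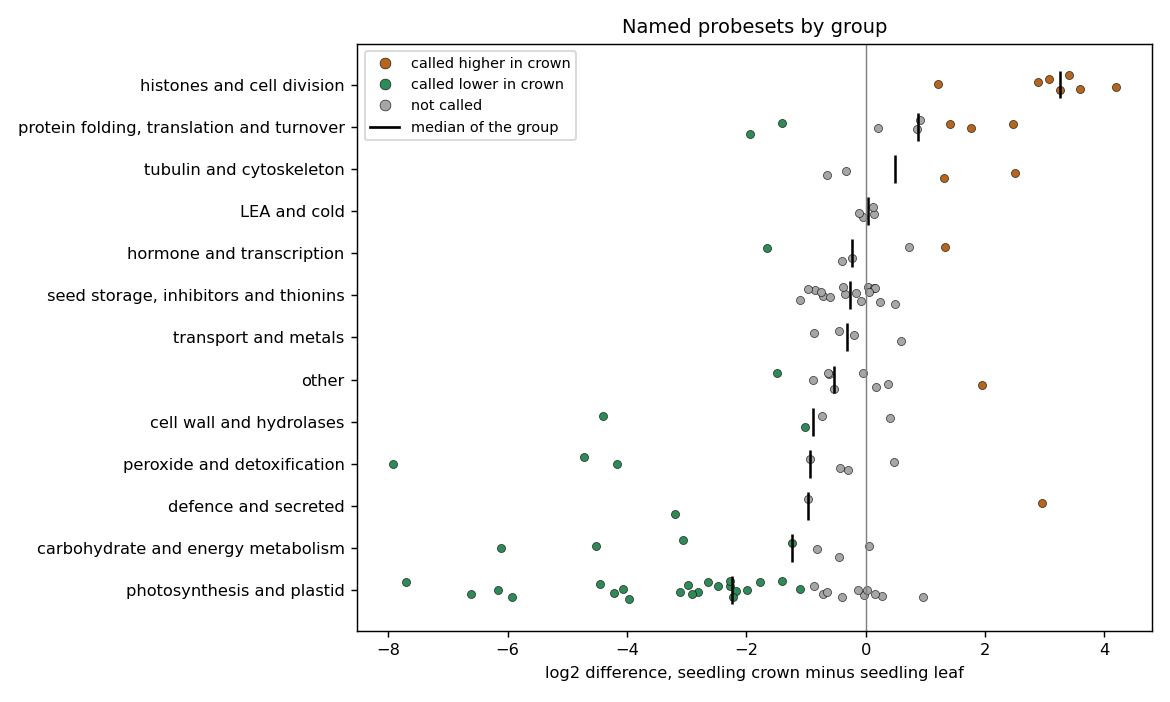
Difference between seedling crown and seedling leaf (horizontal axis, log2 units) of the 110 named probesets, by functional group (vertical axis). Each point is 1 probeset, its colour gives the call, the line is the median of the group, and vertical scatter within a row has no meaning. All 7 histone probesets lie right of 0 and the photosynthesis group reaches from -7.70 to 0.97.

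Core histone genes were higher in the crown at every probeset. All 7 probesets of the 4 genes H2A-3, H2A-9, wcH2B-6 and wcH2B-8 were called, against 11.3% of all probesets called higher. Their median difference was 3.26, against -0.07 for all probesets. H2A and H2B form the dimers that complete the nucleosome. H2A-9 (Ta.27657.12.S1_at) had levels of 13.82, 13.76 and 13.70 on the crown arrays, against 7.93, 10.39 and 10.34 on the leaf arrays. The crown arrays were close together and all above the leaf, and leaf replicate 1 was the lowest array. The difference was 4.20 ± 0.38 (SE), or 18.4-fold, with an adjusted p of 2.69e-10 in limma. This SE, like the others given here, rests on the spread within all 13 tissues. The SD of this probeset was 0.06 in the crown and 1.41 in the leaf, so the SE understates the spread of the leaf arrays. The second probeset of H2A-9 (Ta.27657.1.S1_at) differed by 3.07 ± 0.37.

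wcH2B-8 showed the same order at its 3 probesets. For Ta.7378.21.S1_at the crown arrays had 14.27, 14.03 and 14.05, against 8.37, 11.56 and 11.64 on the leaf arrays, again with no overlap and with leaf replicate 1 far below the other leaf arrays. The difference of 3.59 ± 0.49 had an adjusted p of 4.76e-07 in limma, and Ta.7378.18.S1_at and Ta.7378.1.S1_at differed by 3.40 and 3.26. H2A-3 (Ta.27192.1.S1_at) stood at 13.88, 13.73 and 13.68 in the crown and 9.10, 11.82 and 11.69 in the leaf, a difference of 2.89 ± 0.38 (adjusted p = 2.82e-07, limma). wcH2B-6 (Ta.27708.1.S1_at) was the member with the smallest difference. Its crown levels of 13.82, 13.63 and 13.49 lay above leaf levels of 11.36, 12.97 and 12.99, and the difference of 1.21 ± 0.27 had an adjusted p of 0.000592 in limma.

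The size of the histone differences rested in part on leaf replicate 1. Without that array the 7 differences were 0.67 to 3.39, with a median of 2.46, and 6 of the 7 probesets were called. H2A-9 (Ta.27657.12.S1_at) then differed by 3.39 (adjusted p = 5.34e-11), wcH2B-8 (Ta.7378.21.S1_at) by 2.52 (2.54e-07) and H2A-3 by 2.01 (1.8e-08) in limma. wcH2B-6 differed by 0.67 and was no longer called. It also missed the threshold when the spread was estimated from crown and leaf arrays alone (adjusted p = 0.104, limma). In that fit 6 of the 7 histone probesets were called.

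Of the 4 tubulin genes 2 were higher in the crown and 2 were not called, with a median difference of 0.49 for the group. Of all probesets 11.3% were higher, but 4 genes are too few to set against that share. TUBA (Ta.723.1.S1_at), an alpha-tubulin gene, had levels of 9.58, 8.52 and 9.48 in the crown against 6.74, 6.34 and 6.98 in the leaf. The groups did not overlap, and the difference was 2.50 ± 0.46 (adjusted p = 5.68e-05, limma). Tubb5, a beta-tubulin gene, averaged 13.32 ± 0.02 in the crown and 12.01 ± 0.42 in the leaf (SD, n = 3 each), a difference of 1.31. The beta-tubulin genes tubb1 and tubb2 had differences of -0.33 and -0.65. Their crown levels of 14.21 ± 0.10 and 14.51 ± 0.08 were below the leaf levels of 14.55 ± 0.06 and 15.16 ± 0.12 on every array, but the differences were smaller than 1. Scaling moved these 2 genes, with differences of -0.02 and -0.01 after quantile normalization and 0.85 and 0.53 when arrays were scaled by the hybridization controls, so no direction is given for them. TUBA and Tubb5 were called higher under all 3 scalings.

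Genes for protein synthesis and folding were higher in the crown at 3 of 8 probesets and lower at 2, against 11.3% and 11.8% of all probesets, and the median of the group was 0.88. With equal array medians 5 were higher and 1 lower, and with scaling to the hybridization controls 6 and 0. FKBP70 (Ta.28955.1.S1_at), a peptidyl-prolyl isomerase that helps proteins to fold, had levels of 13.89, 13.52 and 13.57 in the crown and 11.11, 11.23 and 11.21 in the leaf. The difference of 2.47 ± 0.17 had an adjusted p of 1.38e-12 in limma. Its level was high in both tissues and varied little between replicates.

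The cap-binding factor eIF-4E-1 (Ta.14707.1.S1_at), which recruits mRNA to the ribosome, had levels of 12.77, 12.60 and 12.54 in the crown, against 10.66, 11.05 and 10.90 in the leaf (difference 1.77 ± 0.12, adjusted p = 1.27e-12, limma). For eIF-2-beta (Ta.165.1.S1_at), a subunit of the factor that delivers the initiator tRNA, crown levels were 13.32, 13.02 and 12.94 and leaf levels 11.67, 11.62 and 11.74 (difference 1.42 ± 0.13, adjusted p = 4.81e-10, limma). For both factors every crown array was above every leaf array. The initiation factor Eif4B and the cap-binding protein NCBP also had no overlap between tissues, with differences of 0.86 and 0.90, under the minimum of 1.

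In the same group PCM, a methyltransferase that repairs aged proteins, averaged 6.57 ± 0.34 in the crown and 8.51 ± 0.32 in the leaf and was called lower (difference -1.94, adjusted p = 0.000466, limma). The small heat shock gene hsp16.9A was called lower at -1.41 with an adjusted p of 0.0483 in limma, but its arrays overlapped. Its levels were 4.66, 5.27 and 4.28 in the crown and 7.38, 5.18 and 5.87 in the leaf, and the call was lost without leaf replicate 1 (-0.79, adjusted p = 0.344), leaf replicate 3 (-1.55, 0.0597), crown replicate 1 (-1.37, 0.105) or crown replicate 3 (-1.18, 0.166). The hsp16.9A call was also lost with quantile normalization (-1.26), equal medians (-1.24), the hybridization controls (-0.68) and an offset of 64 (-0.72). With only crown and leaf fitted it was lost too. The conjugating enzyme gene UBC1 of the ubiquitin pathway differed by 0.20.

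**Figure D2:**
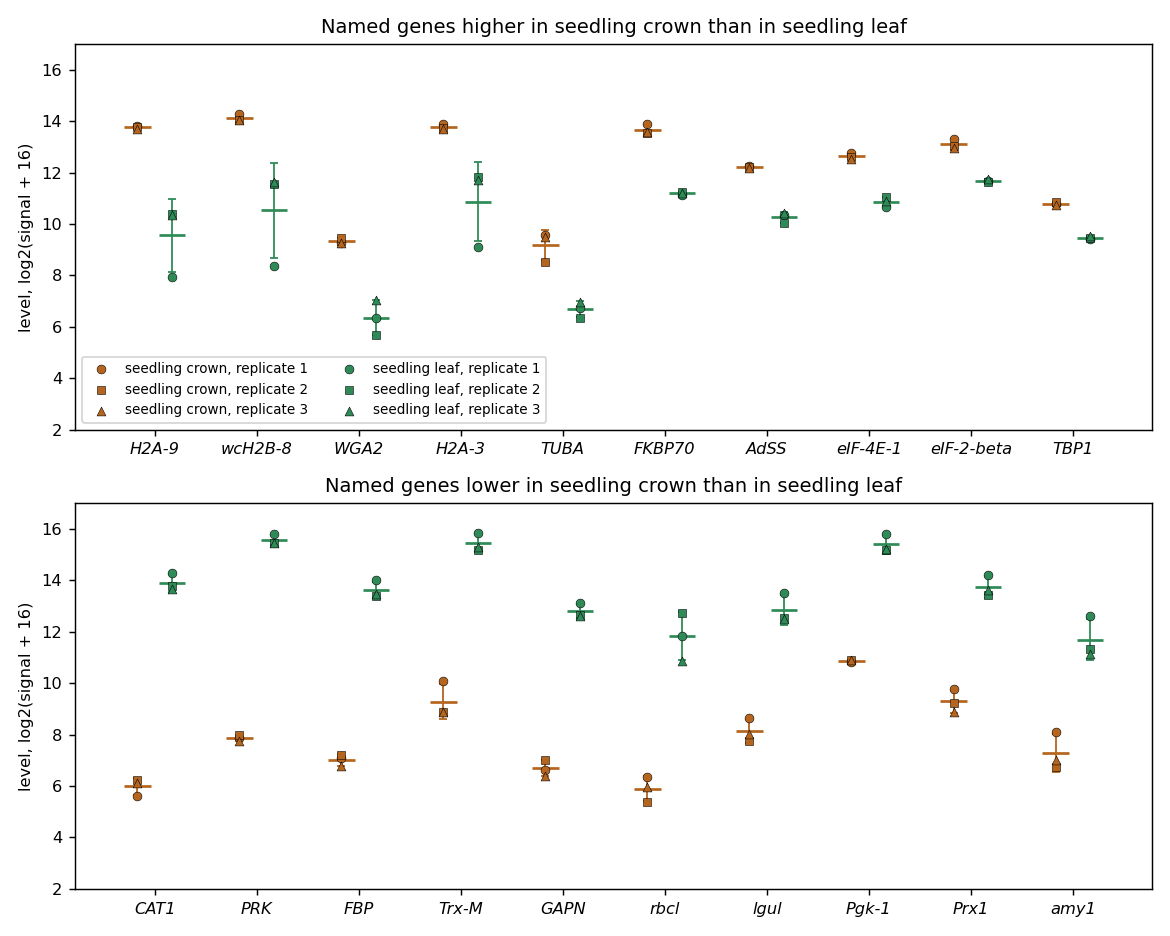
Level on each array, log2(signal + 16), for 20 named genes, the 10 per direction that differed most among called probesets without overlap. Seedling crown is left of seedling leaf for each gene, marker shapes are replicates 1 to 3, and lines and bars are the mean and SD of 3 arrays. For the 3 histone genes shown, leaf replicate 1 lies below the other two leaf arrays, with 7.93, 8.37 and 9.10.

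Other genes higher in the crown belonged to several groups. WGA2 (Ta.147.1.S1_at), which encodes wheat germ agglutinin, a lectin that binds chitin, had levels of 9.25, 9.46 and 9.25 in the crown and 6.35, 5.69 and 7.04 in the leaf. The tissues were well separated, with a difference of 2.96 ± 0.38 (adjusted p = 1.46e-07, limma), and the leaf was near background. AdSS (Ta.121.1.S1_at), adenylosuccinate synthetase of purine synthesis, had 12.27, 12.23 and 12.16 in the crown, against 10.34, 10.03 and 10.44 in the leaf (difference 1.95 ± 0.14, adjusted p = 2.31e-12, limma). TBP1 (Ta.15.1.S1_at), the TATA-binding protein of the transcription machinery, had 10.77, 10.87 and 10.74 in the crown and 9.40, 9.45 and 9.53 in the leaf (difference 1.33 ± 0.12, adjusted p = 2.16e-10, limma). For TBP1 the leaf had the lowest mean of all 13 tissues, as it did for eIF-4E-1.

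Photosynthesis and plastid genes were lower in the crown. Of 32 probesets for 8 genes, 22 were lower, 0 were higher and 10 were not called. Of all probesets 11.8% were lower and 11.3% higher. The median difference of the group was -2.25, against -0.07 for all probesets. All 8 genes had at least 1 probeset called lower. With equal array medians or scaling to the hybridization controls 1 probeset was higher and 21 or 20 were lower. PRK (Ta.23158.1.S1_at), phosphoribulokinase of the Calvin cycle, had levels of 7.87, 7.97 and 7.76 in the crown, against 15.81, 15.45 and 15.45 in the leaf. The difference of -7.70 ± 0.40, or 208-fold, had an adjusted p of 3.12e-15 in limma.

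FBP (Ta.439.1.S1_at), the fructose-bisphosphatase of the same cycle, had levels of 7.07, 7.21 and 6.77 in the crown and 14.00, 13.40 and 13.48 in the leaf (difference -6.61 ± 0.51, adjusted p = 7.37e-12, limma). Trx-M (Ta.136.1.S1_at), an m-type thioredoxin of the chloroplast, which transfers reducing power from the light reactions to enzymes, stood at 10.08, 8.89 and 8.88 in the crown and 15.85, 15.19 and 15.30 in the leaf (difference -6.16 ± 0.52, adjusted p = 5.97e-11, limma). Both genes were far apart between the tissues on every array, and crown replicate 1 was the highest crown array for Trx-M. Prx1 (Ta.6572.2.S1_at), a peroxiredoxin, had 9.77, 9.23 and 8.87 in the crown, against 14.22, 13.42 and 13.61 in the leaf (difference -4.46 ± 0.36, adjusted p = 1.67e-11, limma). The other 2 Prx1 probesets differed by -3.11 and -2.82.

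Thylakoid proteins and a plastid ribosomal protein were also lower in the crown. OEE2, a protein of the oxygen-evolving complex of photosystem II, averaged 11.74 ± 0.39 in the crown and 15.80 ± 0.22 in the leaf (SD, n = 3 each), a difference of -4.06 (adjusted p = 5.46e-07, limma). petC, the Rieske protein of the cytochrome b6f complex, averaged 11.53 ± 0.32 and 15.50 ± 0.20 in crown and leaf (difference -3.97, adjusted p = 1.96e-07, limma) at Ta.861.1.S1_at. CL9, a ribosomal protein of the chloroplast, averaged 11.19 ± 0.46 in the crown and 13.83 ± 0.67 in the leaf (difference -2.63, adjusted p = 1.17e-07, limma). The second petC probeset (TaAffx.128418.105.S1_at) was at background in both tissues.

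The large subunit of Rubisco, rbcl, is encoded in the chloroplast genome and was represented by 21 probesets. These probesets did not behave alike. At 12 of them the crown was lower and 9 were not called, with differences from -5.92 to 0.97. Crown means ranged from 4.15 to 8.99 and leaf means from 4.48 to 11.82. At the probeset with the largest difference (TaAffx.128414.72.S1_at) the crown arrays had 6.35, 5.39 and 5.95, against 11.85, 12.74 and 10.87 on the leaf arrays (difference -5.92 ± 0.45, adjusted p = 5.36e-12, limma). Leaf levels at TaAffx.128414.181.S1_at were similar, at 10.61, 10.82 and 11.04, but the crown stood higher, at 8.79, 8.49 and 8.50, and the difference was -2.23. TaAffx.128414.196.S1_at averaged 8.99 ± 0.37 in the crown and 9.64 ± 0.05 in the leaf and was not called. The other 8 rbcl probesets not called had means of at most 6.09 in either tissue, near background. Of these, Ta.14567.2.S1_at (difference 0.97) was called higher with equal medians (1.05), with the hybridization controls (1.42) and without crown replicate 3 (1.46). TaAffx.128414.52.S1_at was called lower without leaf replicate 3 (-1.34). At TaAffx.128414.53.S1_at, with a difference of -1.10, the call was lost without crown replicate 2 (adjusted p = 0.0526, limma), under each of the 3 other scalings (-0.97 with quantile normalization, -0.97 with equal medians, -0.62 with the hybridization controls) and with an offset of 64 (-0.41). The calls at TaAffx.128414.51.S1_at and TaAffx.128414.80.S1_at were lost with an offset of 64 (-0.90 and -0.70), the first also with only crown and leaf fitted (adjusted p = 0.079, limma) and the second with the hybridization controls (-0.64). With a replicate block in that fit both missed the threshold (adjusted p = 0.155 and 0.0579, limma). The leaf had the highest mean of all 13 tissues at 12 of the 21.

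Genes of peroxide removal and detoxification were lower in the crown at 3 of 7 probesets, against 11.8% of all probesets, with a median of -0.94. These 3 probesets stand for 2 genes, CAT1 and lgul. The largest difference of any named gene was that of CAT1 (Ta.442.1.S1_at), a catalase. Its levels were 5.60, 6.24 and 6.12 in the crown, at or near background, and 14.29, 13.77 and 13.65 in the leaf. The difference was -7.92 ± 0.40, or 242-fold, with an adjusted p of 1.56e-15 in limma. A second CAT1 probeset (TaAffx.80209.1.S1_at) was at background in both tissues.

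The lactoylglutathione lyase gene lgul, which detoxifies methylglyoxal, had levels of 8.64, 7.76 and 8.01 in the crown and 13.53, 12.52 and 12.51 in the leaf at Ta.28068.1.S1_at (difference -4.72 ± 0.50, adjusted p = 4.35e-09, limma). At its other probeset, Ta.8554.1.S1_at, the difference was -4.16. At both lgul probesets every crown array was below every leaf array. The glutathione transferase GSTZ1 had differences of -0.94 and -0.43, and the peroxiredoxin PER1, known from seeds, one of 0.48.

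In carbohydrate and energy metabolism 4 of 7 genes were lower in the crown and 0 higher, against 11.8% and 11.3% of all probesets, and the median was -1.23. GAPN (Ta.511.1.S1_at), a glyceraldehyde-3-phosphate dehydrogenase that makes NADPH, had levels of 6.64, 7.02 and 6.41 in the crown, against 13.12, 12.66 and 12.62 in the leaf (difference -6.11 ± 0.42, adjusted p = 1.05e-12, limma). Pgk-1 (Ta.2307.1.S1_at), a phosphoglycerate kinase, had 10.82, 10.90 and 10.90 in the crown and 15.81, 15.17 and 15.21 in the leaf (difference -4.52 ± 0.21, adjusted p = 1.62e-16, limma). The groups were far apart for both, but Pgk-1 was well above background in the crown too.

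Starch and fructan genes showed smaller differences. AGA.1, the large subunit of ADP-glucose pyrophosphorylase, averaged 8.69 ± 0.26 in the crown and 11.75 ± 0.30 in the leaf (difference -3.06, adjusted p = 1.07e-09, limma). The gene for the small subunit of that enzyme, AGP-S, averaged 12.07 ± 0.02 in the crown and 12.52 ± 0.18 in the leaf, a difference of -0.45 that was not called. The fructan exohydrolase 1-FEH, which breaks down the fructans that wheat stores, averaged 12.19 ± 0.18 in the crown and 13.42 ± 0.17 in the leaf (difference -1.23, adjusted p = 1.08e-07, limma). The related 6-FEH had a difference of -0.81 and was not called, though it was without leaf replicate 3 (-1.44, adjusted p = 0.016, limma), and the invertase gene IVR1 was at background in both tissues.

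Hydrolases, defence genes and regulators were mixed. The amylase gene amy1 (Ta.3.1.S1_at) had levels of 8.12, 6.75 and 7.00 in the crown, against 12.61, 11.34 and 11.14 in the leaf (difference -4.40 ± 0.46, adjusted p = 3.3e-09, limma). Leaf replicate 1 and crown replicate 1 were the highest of their groups. GLU1A, a beta-glucosidase that releases defence compounds from their glucosides, averaged 14.46 ± 0.17 in the crown and 15.47 ± 0.27 in the leaf (difference -1.02, adjusted p = 0.00323, limma), and this call did not hold without leaf replicate 1 (difference -0.86), crown replicate 2 (-0.94) or crown replicate 3 (-1.0), or under any of the 3 other scalings. The endotransglycosylase gene XTH, which remodels cell wall xyloglucan, differed by 0.40 and the glucanase gene Glc1 by -0.73, and neither was called. LTP3, a lipid transfer protein, averaged 8.50 ± 0.18 in the crown and 11.69 ± 0.32 in the leaf (difference -3.19, adjusted p = 8.87e-11, limma).

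PR5, a thaumatin-like pathogenesis protein, varied widely between replicates. Its levels were 6.58, 4.72 and 10.55 in the crown and 7.27, 9.93 and 7.54 in the leaf, the groups overlapped, and it was not called (difference -0.97, adjusted p = 0.5, limma). Without crown replicate 3, the highest crown array, PR5 was called lower (-2.60, adjusted p = 0.0176). The zinc finger gene WZF1 was called lower at -1.65 with an adjusted p of 0.0356 in limma, although its crown levels of 8.82, 10.40 and 9.99 overlapped the leaf levels of 10.27, 12.53 and 11.37. The call was lost without crown replicate 1 (-1.20, adjusted p = 0.199), crown replicate 3 (-1.78, 0.0521), leaf replicate 2 (-1.08, 0.233) or leaf replicate 3 (-1.66, 0.0695). It was also lost with equal medians (-1.42), the hybridization controls (-0.49), an offset of 1 (-1.67) and only crown and leaf fitted. The gibberellin oxidase genes GA20ox1a, GA20ox1b and GA20ox1d, which act late in gibberellin synthesis, had differences of 0.73, -0.39 and -0.23 with overlapping arrays. GA20ox1a was higher in the crown without leaf replicate 1 (difference 1.21, adjusted p = 0.0108, limma).

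No probeset in the groups of seed storage, LEA and cold, or transport genes was called, against 23.1% of all probesets. WGA2 and PCM, which were highest in the 22 DAP embryo, belong to other groups and were called. None of the 16 probesets for seed storage proteins, inhibitors and thionins was called (median -0.26), and 0 of the 4 for LEA and cold proteins (median 0.03) and 0 of the 4 for transport and metals (median -0.31). Groups of 4 are too small to set against that share. Of the 16 seed probesets, only 5 were above background on any crown array and 6 on any leaf array, so few had measurable signal. At Ta.27777.1.S1_at, a probeset of ALP, the crown arrays were all above the leaf arrays, with 12.65 ± 0.03 in the crown and 12.16 ± 0.06 in the leaf (difference 0.49, adjusted p = 0.00395, limma), under the minimum of 1. For THI1.2, CIII and GAG56D the crown arrays were all below the leaf arrays, with differences of -1.10, -0.71 and -0.38 that missed the threshold. GAG56D was at background in both tissues. Of all retained probesets, 20.4% had all crown arrays above and 21.4% all crown arrays below the leaf arrays. The xylanase inhibitor xip was called lower without crown replicate 1 (-1.27) or leaf replicate 2 (-1.15), and the thionin THI1.2 without crown replicate 3 (-1.42). The embryo gene Em was at background in both tissues, and so was COR410, a dehydrin known from cold-treated wheat, in these untreated seedlings. The plasma membrane proton pump H+-ATPase averaged 13.19 ± 0.18 in the crown and 14.05 ± 0.10 in the leaf, a difference of -0.86 under the minimum of 1. The aluminium-activated malate transporter ALMT1-1, known from roots, averaged 9.95 ± 0.72 in the crown and 9.36 ± 0.98 in the leaf. Among the remaining genes, TSA averaged 13.86 ± 0.22 in the crown and 15.35 ± 0.27 in the leaf and was called lower (difference -1.49, adjusted p = 5.49e-08, limma), but not after quantile normalization (-0.93).

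Marker lists of green leaf and of dividing cells were checked against the labels. The summed signal of 30 probesets for 7 green leaf genes was 12158 to 18203 on crown arrays and 227077 to 323181 on leaf arrays. Of these probesets, 20 were lower and 0 higher in the crown, against 11.8% and 11.3% of all probesets. On all crown arrays 14 were at background and on all leaf arrays 10, against 44.5% and 48.3% of all retained probesets. OEE2, petC and CL9 were above background on every crown array. For 11 probesets of 8 histone and tubulin genes the sums were 149507 to 172260 in the crown and 71999 to 90641 in the leaf. Of these, 9 were higher in the crown, against 11.3% of all probesets. The remaining members, tubb1 and tubb2, were below the leaf on every crown array and were not called. Signal from green sheath tissue and from other cell types within the crown cannot be told apart in pooled RNA. The 13 probesets of the grain list were at background on all crown arrays for 11 and on all leaf arrays for 10, and the anther gene raftin1a was at background in both. The summed signal of the root marker ALMT1-1 was 544 to 1373 in the crown and 289 to 1083 in the leaf.

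The largest measured differences belonged to probesets without a gene. Ta.9768.1.S1_at had levels of 14.22, 14.49 and 14.23 in the crown and 4.27, 4.16 and 4.88 in the leaf (difference 9.87 ± 0.47, adjusted p = 3.52e-16, limma). The seedling root came next among the other tissues, with 9.26 ± 0.14. TaAffx.122333.1.S1_at had 12.54, 13.20 and 12.48 in the crown, against 4.29, 4.52 and 4.87 in the leaf, and 6.62 in the seedling root. Both were at background in the leaf. On the other side, Ta.9718.1.S1_at had levels of 4.10, 4.91 and 5.77 in the crown and 15.68, 14.56 and 14.54 in the leaf (difference -10.00 ± 0.54, adjusted p = 5.64e-15, limma), and floral bracts came next with 8.27 ± 0.44. Ta.1983.1.S1_at differed by -9.15, with 5.82, 7.00 and 4.80 in the crown and 15.48, 14.76 and 14.84 in the leaf, and it was also strong in bracts, at 13.26 ± 0.12. All 3 crown arrays of Ta.9718.1.S1_at and crown replicates 1 and 3 of Ta.1983.1.S1_at were at background. The sizes of these 4 differences, and so their order, are set in part by the background and the offset. Over all 713 retained probesets with a gene, named or not, 129 were higher and 140 lower in the crown (37.7% called, against 23.1% of all). Where a gene had at least 2 called probesets, as 13 genes did, they pointed the same way in all 13.

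The same probesets were then followed through the 11 other tissues, as a description. Those higher in the crown had a median level of 9.06 in the crown and 7.14 in the leaf. Their median was 9.12 in immature inflorescence, 8.98 in germinating seed embryo and 8.90 in the 22 DAP (days after pollination) embryo, and lowest in anthers, at 7.37, and floral bracts, at 7.85. The tissue labelled germinating seed embryo is listed as mesocotyl in the study. Among the 11 tissues, 1199 of the 4490 (26.7%) peaked in the inflorescence, against 8.86% of all probesets, and 728 (16.2%) in the 22 DAP embryo, against 7.58%. The coleoptile of germinating seed was the peak of 542 (12.1%), against 4.87%. Probesets lower in the crown had a median of 6.22 in the crown and 8.32 in the leaf. They had a median of 7.27 in floral bracts and at most 6.48 in the other 10 tissues. Bracts were the tissue of the highest mean for 1739 of the 4663 (37.3%), against 11.8% of all probesets.

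**Figure D3:**
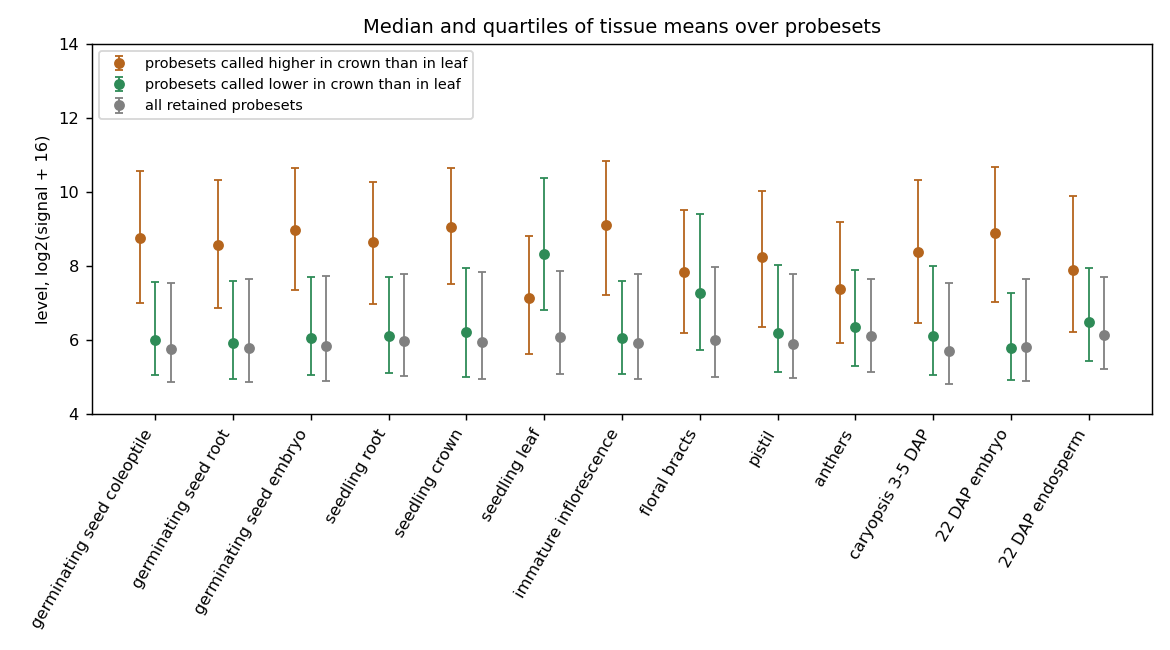
Level, log2(signal + 16), in each of the 13 tissues for the 4490 probesets higher in the crown, the 4663 lower in the crown and all 39564 retained probesets. Points are medians over probesets of the mean of 3 arrays, and bars run from the first to the third quartile. Outside the leaf, the set lower in the crown is highest in floral bracts, at 7.27.

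Single genes followed these patterns to different degrees. For 6 of the 7 histone probesets the crown ranked second of the 13 tissues, after the immature inflorescence, and the leaf 9th or 10th. wcH2B-8 (Ta.7378.21.S1_at), for example, averaged 14.12 ± 0.13 in the crown, 10.52 ± 1.86 in the leaf and 14.25 in the inflorescence. wcH2B-6 ranked seventh in the crown and was highest in the caryopsis at 3 to 5 DAP. PRK averaged 7.87 ± 0.11 in the crown, 15.57 ± 0.21 in the leaf and 14.25 in floral bracts, the tissue ranked next to the leaf, and bracts were also next for CAT1, GAPN, Pgk-1, lgul, OEE2 and petC. TUBA and WGA2 were highest in the 22 DAP embryo, at 12.43 and 14.72, and FKBP70, eIF-4E-1 and eIF-2-beta in the coleoptile of germinating seed. LTP3, which was lower in the crown than in the leaf, was highest in the 22 DAP endosperm, at 14.39, and AGP-S in the same tissue, at 15.80.

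**Figure D4:**
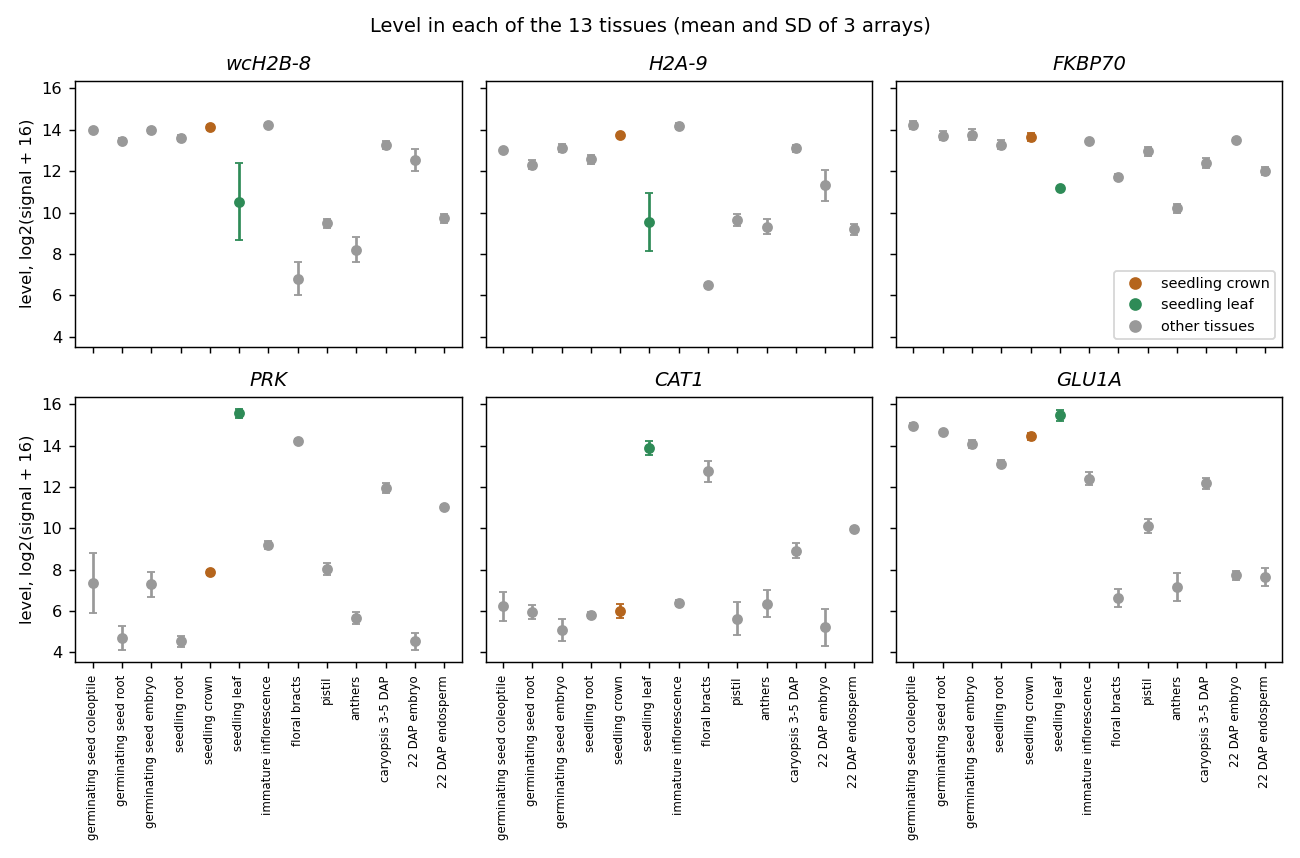
Level, log2(signal + 16), of 6 genes in each of the 13 tissues, as mean and SD of 3 arrays, with the crown and the leaf in colour. For PRK and CAT1 only floral bracts come near the leaf, whereas for the histone gene wcH2B-8 the crown lies with the inflorescence at 14.12 and 14.25.

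Immature inflorescence and floral bracts share no array with crown or leaf, though all 4 tissues were fitted in 1 model. Arrays of bracts have almost no signal from the polyadenylated control RNAs, and the part of this in the results was not tested. In limma 4437 probesets (11.2%) were higher in the inflorescence than in bracts and 5437 (13.7%) were lower. Of the 4490 probesets higher in the crown, 2221 were also higher in the inflorescence, which is 49.5% of the crown list and 50.1% of the inflorescence list, and 284 (6.33% and 5.22%) were lower. Of the 4663 lower in the crown, 2108 were also lower in the inflorescence (45.2% of that list and 38.8% of the other), and 130 (2.79% and 2.93%) were higher.

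Named genes could be set side by side in both comparisons. Of all retained probesets 11.2% were higher and 13.7% lower in the inflorescence than in bracts, with a median difference of 0.008. All 7 histone probesets were higher in the inflorescence than in bracts, with a median difference of 6.63, against 3.26 between crown and leaf. Photosynthesis genes were lower in the inflorescence at 21 of 32 probesets and higher at 1, with a median of -1.55, against -2.25 between crown and leaf. CAT1 (Ta.442.1.S1_at) differed by -6.37 between inflorescence and bracts and by -7.92 between crown and leaf, and PRK by -5.05 and -7.70. LTP3 differed by -6.01 and -3.19.

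**Figure D5:**
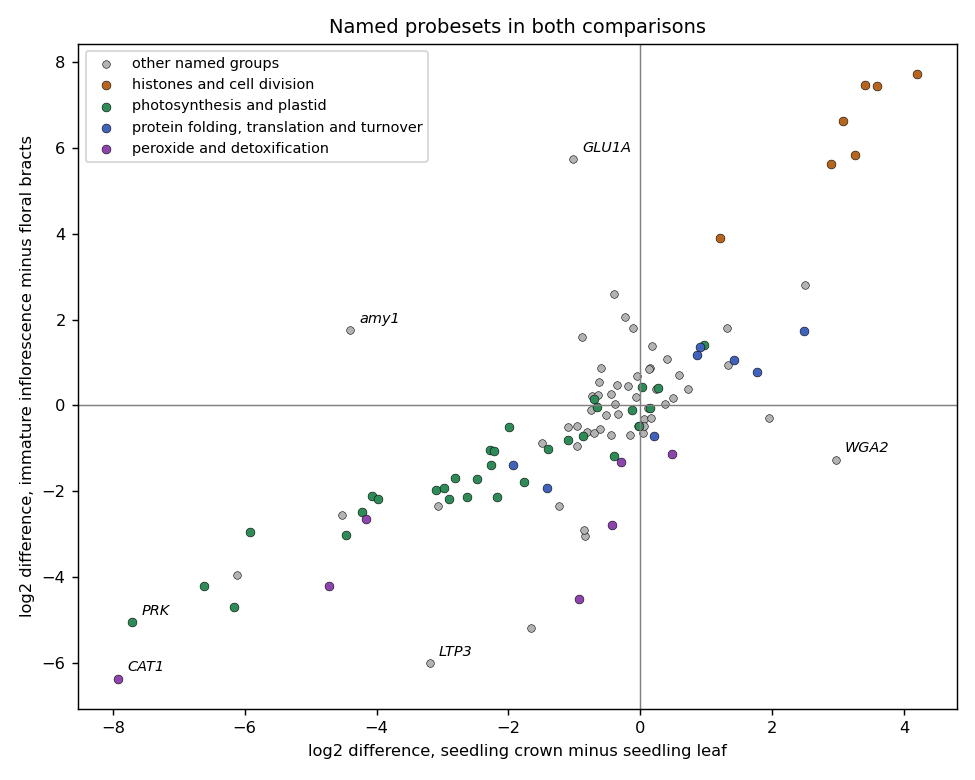
Difference between crown and leaf (horizontal axis) and between inflorescence and bracts (vertical axis), in log2 units, for the 110 named probesets. Each point is 1 probeset, coloured by group. Histone probesets lie at the upper right, photosynthesis genes mostly at the lower left, and amy1, GLU1A and WGA2 were called in opposite directions in both comparisons.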

How the data were processed

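Wheat GeneChip arrays of 13 tissues, 3 per tissue, were analysed. The deposited intensities are MAS5 signals on a linear scale, made by the authors with 1 value per probeset and array. The tool is named per the labels without a version, and the RMA values of the study were not used. The number of arrays limits the precision. Probesets marked _s_at, _x_at, _a_at or .A1 (21551), 64 reporters and 111 controls were left out. An offset of 16 was added before log2, with no further scaling. Tissue means were fitted over 39 arrays in limma 3.58.1 (R 4.3.3) with empirical Bayes, and the contrast of crown minus leaf was called at a Benjamini-Hochberg adjusted p under 0.05 over all 39564 probesets and a log2 difference of at least 1. The same fit gave inflorescence minus bracts and the difference of both. Summaries used Python 3.11.15, pandas 2.3.3 and numpy 2.4.6, and figures matplotlib 3.10.9. Alternatives were 3 scalings of the arrays, an offset of 1 or 64, testing only probesets of at least median level or else all wheat probesets, limma's trend and robust options, a fit of only crown and leaf with and without a replicate block, other minimum differences and leaving out each array.

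Gene names came from tables that pair 1273 probesets with a gene (1272 of them found in the RefSeq gene table). Named genes were all retained probesets with exactly 1 gene that has a name, grouped by function: the 10 with the largest difference per direction, called and without overlap, are given per array, with further members of each group by their means and the 2 largest unnamed probesets per direction. PR5, WZF1 and hsp16.9A are given per array because of their spread, a choice made after their values were seen. The reference gene group had 0 members. Members and lists were chosen with earlier results of these data known. Crown and leaf arrays with the same number had deviations that correlated at 0.040 to 0.097, and those with different numbers at -0.066 to 0.024. These correlations are weak and no pairing is stated, so the main fit did not take numbers as pairs.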

Additional observations from a re-analysis of the deposited data

Results flagged for a closer look

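In 3 named genes, amy1, GLU1A and WGA2, the difference between crown and leaf was called in one direction and that between inflorescence and bracts in the other. The difference of both differences was taken from the same limma fit. These genes were picked by their opposite calls in the same data, so its adjusted p adds no support of its own. Other named genes also had opposite signs, but passed the threshold in at most 1 of the comparisons. For amy1 it was -6.16 (adjusted p = 1.51e-08), from -4.40 between crown and leaf and 1.76 between inflorescence and bracts. For the beta-glucosidase gene GLU1A it was -6.76 (adjusted p = 5.53e-14), from -1.02 and 5.75, and the first of these was 0.17 after scaling to the hybridization controls. GLU1A averaged 12.40 in the inflorescence and 6.65 in bracts. For the lectin gene WGA2 it was 4.23 (adjusted p = 3.88e-07), from 2.96 and -1.27, and WGA2 was near background in both floral tissues, at 4.68 in the inflorescence and 5.94 in bracts.

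The control probesets of the array for sucrose synthase, an enzyme that splits sucrose for use in growing tissue, were outside the comparison and were higher in the crown. The 3' probeset had levels of 12.74, 12.66 and 12.87 in the crown and 11.15, 10.50 and 10.45 in the leaf, a difference of 2.06. The middle probeset differed by 2.49 and the 5' probeset by 2.02, and none of the 3 overlapped between tissues. The 5' probeset was at background in the leaf, at 5.04, 4.94 and 5.76. The size of its difference is set in part by the background and the offset. Control probesets of other genes did not overlap either, such as those of ubiquitin (-0.75, -0.63 and -0.72) and G-6-PDH (0.97, 1.06 and 0.62). All control probesets were left out of the fit, so the differences have no test.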

How the results depend on the processing

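The share of called probesets that are higher in seedling crown was 49.1% as reported. It was 52.0% after quantile normalization, 61.3% with equal medians, 89.6% with scaling to the hybridization controls, 51.7% with an offset of 1, 51.8% with an offset of 64, 58.2% when only the probesets of at least median level were tested and 52.3% with all wheat probesets. With only crown and leaf fitted it was 50.2%, with a replicate block added to that fit 50.3%, at a log2 difference of at least 2 45.0%, with no minimum difference 52.7%, and 49.0% to 51.3% when an array was left out. Scaling to the hybridization controls gave 13114 higher and 1515 lower and moved the median of all differences to 0.62. The number lower was 3007 with an offset of 64 and 2956 of the 19782 of at least median level. All 61115 wheat probesets gave 8781 higher and 8020 lower, and a minimum of 2 gave 1336 and 1632. Leaving out an array gave 4185 to 4594 higher and 4154 to 4609 lower. With the replicate block 3978 were higher and 3938 lower. In its deviations every crown array correlated best with the leaf array of its own number, a hint of pairing from the data only. Of the 51 called named probesets, 41 kept their call under every alternative that tested them (9 fell below the median level) and 46 whenever an array was left out, while leaving out 1 array added a call for 9 others. GLU1A reversed to 0.17 with the hybridization controls (adjusted p = 0.723, limma; -1.11 to 0.17 over its alternatives). The calls of TSA, 1-FEH, PCM, WZF1 and hsp16.9A were lost there too, at -0.31, -0.05, -0.87, -0.49 and -0.68. So were those of rbcl at TaAffx.128414.80.S1_at (-0.64) and TaAffx.128414.53.S1_at (-0.62). All 7 histone probesets were called under each scaling, and photosynthesis had 20 or 21 lower and 0 or 1 higher. Counts per group under other scalings and without leaf replicate 1 were chosen after seeing the data. The causes were not tested. With 3 arrays per tissue and weak signals near background, smaller differences can be missed.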
